A study of Mus musculus with 4 samples.

Results

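This account describes how transcript levels differed between refed and fasted pancreatic islets of KR mutant mice, across all genes with a usable value. Pancreatic islets are the small clusters of endocrine cells of the pancreas, mostly insulin-secreting beta cells, with glucagon-secreting alpha, somatostatin-secreting delta and pancreatic polypeptide (PP) cells. The comparison used 2 of the 4 libraries of the series, 1 of KR islets after a fast and 1 of KR islets after the fast and refeeding. All mice were of the C57BL/6 strain, and their age and sex are not given in the labels used here. The KR allele, as known from the study, encodes FoxO1, a forkhead transcription factor, with arginine in place of the lysines that are acetylated, so both libraries compared here carry that allele. The sample titles give a 48 h fast and 6 h of refeeding, while the extraction protocol gives a 24 h fast, and the labels do not settle which is right. Islets of 3 mice were combined for each genotype, so a library is a pool and the comparison has no replicate. The other 2 libraries, wild type (WT) islets in the same feeding states, share no library with the KR pair and are given beside it where they help to place a value.

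A meal after a fast raises blood glucose and amino acids, and both act on islet cells. Glucose enters the beta cell through the transporter GLUT2, drives insulin release and through the factor ChREBP induces genes such as Txnip. When amino acids run short or the endoplasmic reticulum (ER) is overloaded, phosphorylation of the initiation factor eIF2 slows general protein synthesis while the transcription factor ATF4 is made, and ATF4 switches on genes for amino acid import and synthesis and for charging transfer RNAs. FoxO1 is held in the cytosol when insulin signalling is active and enters the nucleus when it is low, and its acetylation changes its activity and stability.

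The values are FPKM, fragments per kilobase of transcript scaled to sequencing depth, with a deposited lower and upper bound for each gene, whose confidence level is not given in the sources used here. A ratio is log2 of the refed FPKM plus 1 over the fasted FPKM plus 1, so a value above 0 means higher after refeeding, and the ratio of a gene with a low level is drawn towards 0. Of 23235 gene symbols, 11950 had a usable value in both KR libraries and a mean FPKM of at least 1, and these are the genes described. Depth differed: the bounds imply about 25718949 fragments in the fasted library, leaving out Ins2, and 11079100 in the refed library, which was the shallower one, at 0.413 times the fasted depth over 7993 well-covered genes. The bounds imply a median half-width of the log2 ratio of 0.40 for genes with a mean FPKM from 1 to 5 and of 0.096 for genes at 100 or more. At the threshold on the mean, 123 genes at 0.9 to 1 stayed outside and 110 genes at 1 to 1.1 came in, with median half-widths of 0.46 and 0.45.

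The median ratio over all tested genes was -0.02, with quartiles at -0.28 and 0.23. At least 2-fold higher after refeeding were 68 genes, 0.569% of those tested, and at least 2-fold lower were 209, or 1.75%, so 2.32% in all. The lower genes thus outnumbered the higher ones at this size. A pseudocount of 5 FPKM in place of 1 gave 36 and 100, and one of 0.1 gave 136 and 340. The deposited bounds of the refed and the fasted value did not overlap for 52.0% of genes, 23.1% with the refed value higher and 29.0% with it lower. Bounds that lie apart are thus common, and they cover no error between animals. They lay apart for 28.2% of genes with a mean FPKM from 1 to 5, 49.1% from 5 to 20, 66.4% from 20 to 100 and 84.1% at 100 or more. A count of bounds apart in a list therefore depends on the level of its genes. Any such count below is to be set beside the 23.1% and 29.0% of all tested genes. Of the 68 and 209 genes, 57 and 197 also had bounds apart, and 11 and 12 were small RNA genes. A fold of 4 or more was seen in 10 genes above and 25 below. Ranked genes below are those with a mean FPKM of at least 5, without small RNA and unnamed genes, and genes among the 15 highest and 15 lowest of them are named. With pooled islets, fewer cells of a type and less RNA per cell cannot be told apart in any of these ratios.

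**Figure D1:**
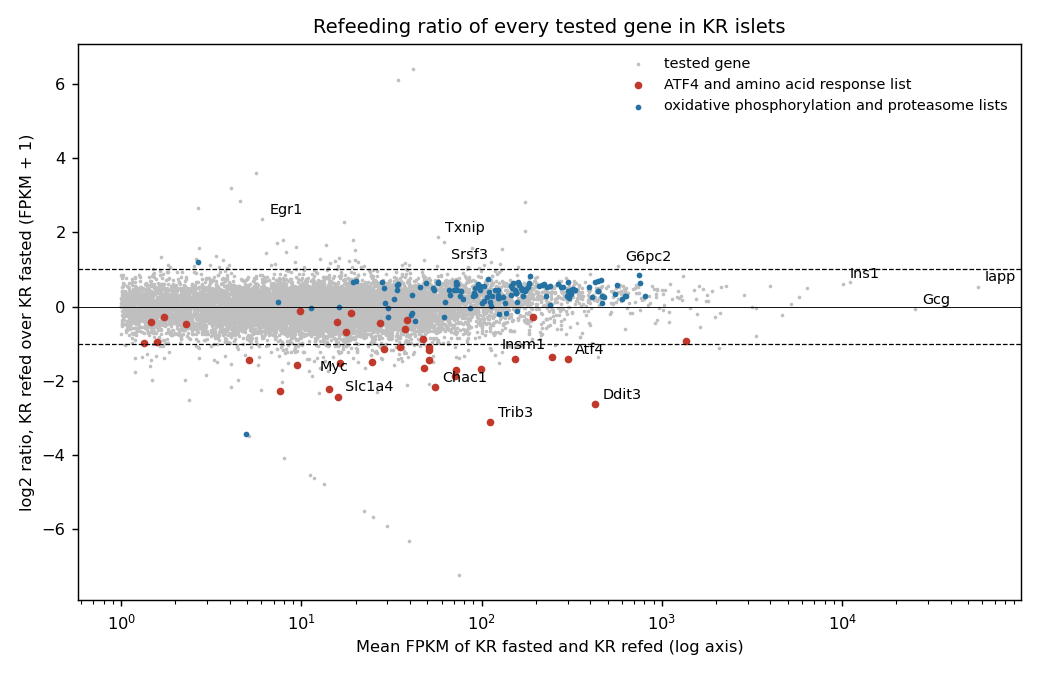
Each point is 1 of the 11950 tested genes, placed by its mean FPKM in the 2 KR libraries (log axis) and its log2 ratio of refed over fasted, with dashed lines at 2-fold. The ATF4 and amino acid response genes (red) lie below 0, down to Trib3 at -3.12, while most oxidative phosphorylation and proteasome genes (blue) lie slightly above it. Points past 4 in either direction include genes listed near 0 in 1 library.

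The ATF4 target genes with the lowest ratios can be shown with the promoter element that ATF4 and C/EBP proteins are known to bind together, read here as the letters TGATGNAA on either strand. In the RefSeq promoters of build GRCm38.p6, each 250 bases before to 50 after a gene's start, this element was found in 11 of 40 promoters of 33 genes of the ATF4 and amino acid response list (27.5%), against 3.97% of all 32851 promoters and 2.17% of those of the tested genes. It was found in 14 of 189 promoters of the genes at least 2-fold lower (7.41%) and in 1 of 47 promoters of those at least 2-fold higher (2.13%). The list was drawn up around ATF4 target genes, so a high share is built into it. The genes at least 2-fold lower include 22 of its members, so their share is not independent of it. A match is a description of the letters and not a site of binding. The other elements searched (TGACGTCA, CACGTG, the ER stress element, TCACNCCAC and TGTTTAC) are different words, though matches of them may overlap at their ends. The following 30-base stretches, written along the gene's strand with the match in capitals, come from members that were far lower after refeeding, from Asns, which was little lower, and from 2 synthetase genes.
Trib3 chr2:152344028-152344057 (minus strand): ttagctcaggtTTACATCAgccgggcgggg
Slc1a4 chr11:20332699-20332728 (minus strand): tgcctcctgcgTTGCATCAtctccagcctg
Chac1 chr2:119351038-119351067 (plus strand): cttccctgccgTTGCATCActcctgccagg
Atf3 chr1:191183425-191183454 (minus strand): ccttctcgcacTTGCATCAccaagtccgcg
Pck2 chr14:55540152-55540181 (plus strand): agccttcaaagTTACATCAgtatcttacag
Vldlr chr19:27216809-27216838 (plus strand): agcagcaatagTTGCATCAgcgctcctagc
Asns chr6:7693214-7693243 (minus strand): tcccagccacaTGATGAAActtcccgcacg
Iars chr13:49682126-49682155 (plus strand): cactgtcagtaTTGCATCAcctccagacgc
Yars chr4:129189895-129189924 (plus strand): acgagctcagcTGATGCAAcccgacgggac
The same element thus stands in promoters of genes with ratios from -3.12 for Trib3 to -0.29 for Asns. For Chac1 the whole stretch before the start is shown, chr2:119350992-119351241 on the plus strand, since it is the member of the 15 lowest ratios whose match lies well upstream, at 193 bases before the start.
Chac1 promoter: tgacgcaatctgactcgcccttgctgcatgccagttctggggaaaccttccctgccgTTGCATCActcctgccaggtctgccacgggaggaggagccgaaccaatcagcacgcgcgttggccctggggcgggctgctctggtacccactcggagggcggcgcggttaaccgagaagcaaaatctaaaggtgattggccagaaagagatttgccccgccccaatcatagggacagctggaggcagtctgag

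The clearest difference in KR islets was in this amino acid and stress response. Of 37 tested members of the ATF4 list, 22 were at least 2-fold lower after refeeding and 0 were higher, beside 1.75% and 0.569% of all tested genes. All 37 ratios were below 0, and for 34 the bounds did not overlap. The median ratio was -1.17, against -0.02 over all tested genes, and it was -1.37 in the WT pair.

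Among the regulators the lowest ratio belonged to Trib3, which encodes a pseudokinase that ATF4 and CHOP induce and that binds AKT and ATF4. Its FPKM was 201 fasted (bounds 197 to 206) and 22.3 refed (20.2 to 24.4), a ratio of -3.12 with bounds of -3.29 to -2.97. In WT islets it went from 245 to 21.6, so both fasted libraries were high, both refed ones low, and no bounds overlapped. Ddit3, the gene of the stress factor CHOP, had an FPKM of 735 fasted (bounds 722 to 748) and 117 refed (109 to 125), a ratio of -2.64. Atf4 itself, in mm9 at chr15:80085614-80087971, stood at 438 fasted (bounds 432 to 445) and 163 refed (156 to 169), a smaller ratio of -1.43. The related factor genes Cebpb, at 23.97 fasted and 4.38 refed, and Atf3, at 7.99 fasted and 2.28 refed, had ratios of -2.21 and -1.45. Atf5 had an FPKM of 354 fasted and 138 refed, a ratio of -1.35. These factors form dimers with one another and with ATF4. Ppp1r15a encodes GADD34, the subunit that directs a phosphatase to eIF2 and so ends the response, and its ratio was -1.67 (73.4 fasted and 22.4 refed). Eif4ebp1, a repressor of cap-dependent translation, stood at 111 fasted and 32.99 refed, a ratio of -1.72. Sesn2, a leucine sensor that restrains mTORC1, stood at 74.8 fasted and 26.9 refed, a ratio of -1.44. Chac1 degrades glutathione, and its FPKM was 90.5 fasted (bounds 87.3 to 93.7) and 19.3 refed (17.04 to 21.6). Gdf15, a secreted stress hormone, and the stress protein gene Nupr1 had ratios of -1.59 and -0.93. Nupr1 was the most abundant member, at 1791 fasted and 942 refed. The regulator nearest 0 was Ddit4, an mTORC1 inhibitor, at 19.9 fasted and 17.6 refed with overlapping bounds.

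The amino acid carriers of the list had a median ratio of -1.42 over 9 tested members. Of these 9, 5 were at least 2-fold lower, beside 1.75% of all tested genes. Slc1a4, a carrier of serine and alanine, stood at 27.6 fasted (bounds 26.5 to 28.6) and 4.28 refed (3.63 to 4.93), and the glycine carrier gene Slc6a9 at 13.3 fasted (bounds 12.5 to 14.1) and 1.94 refed (1.46 to 2.42). Both were low in each refed library, since in WT islets Slc1a4 went from 34.5 to 3.797 and Slc6a9 from 16.9 to 1.32. Slc7a5 and Slc3a2 encode the light and heavy chain of the leucine exchanger LAT1. Their FPKM were 113 fasted and 30.05 refed and 224 fasted and 83.1 refed, ratios of -1.88 and -1.42. The arginine and lysine carrier gene Slc7a1 had a ratio of -1.53 (24.9 fasted and 7.97 refed), and the glutamine carrier gene Slc38a2 a smaller one of -0.61 (45.6 fasted and 29.5 refed). The cystine carrier gene Slc7a11 was low in both libraries (1.81 fasted and 1.11 refed), and its ratio of -0.41 is drawn towards 0 by the pseudocount.

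The enzymes of the list had smaller ratios, with a median of -0.78 over 12 members. The mitochondrial folate enzymes that pass on the carbon of serine differed: Mthfd2 stood at 151 fasted (bounds 148 to 155) and 46.2 refed (43.2 to 49.2) and Shmt2 at 37.00 fasted (bounds 35.4 to 38.6) and 12.5 refed (11.01 to 13.97), among the lowest, while Mthfd1l, at 10.3 fasted and 9.34 refed, had the ratio nearest 0 of the list (-0.13). Pck2, which turns oxaloacetate into phosphoenolpyruvate in mitochondria, had a ratio of -1.17 (70.8 fasted and 30.97 refed), and Aldh18a1, the first enzyme of proline synthesis, one of -1.09. The 3 enzymes that make serine from a glycolytic intermediate were closer to 0, with ratios of -0.69 for Phgdh, -0.37 for Psat1 and -0.46 for Psph. Asns, which makes asparagine, stood at 211 fasted and 172 refed, a ratio of -0.29 with bounds apart. With a pseudocount of 5 FPKM the median of the enzymes was -0.48.

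**Figure D2:**
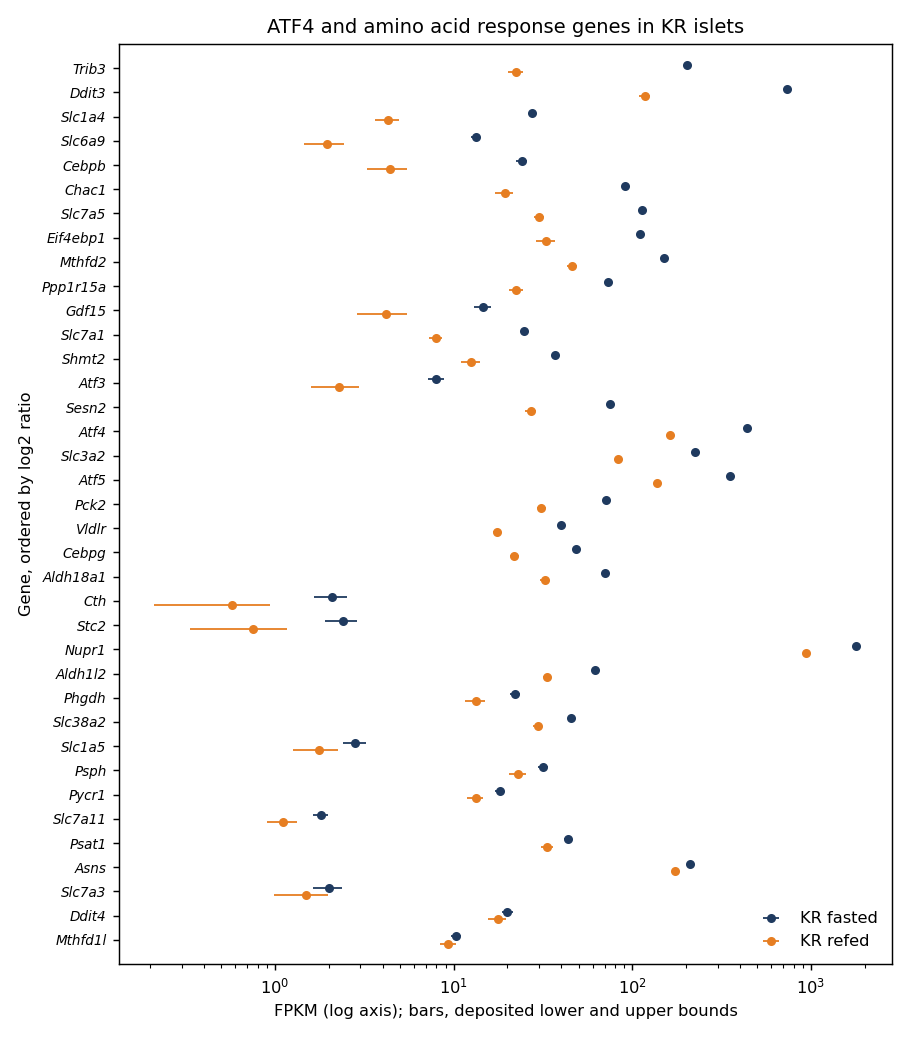
FPKM (log axis) of the 37 tested members of the ATF4 and amino acid response list in fasted (dark) and refed (orange) KR islets, with the deposited bounds as bars, from the lowest ratio at the top. The refed value lies left of the fasted one for each member, from Trib3 at 201 and 22.3 to Mthfd1l at 10.3 and 9.34.

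Outside the list, Gpt2, a mitochondrial alanine transaminase, was among the 15 lowest ratios, at -2.32 (21.5 fasted and 3.49 refed). With it there stood Steap1, a metalloreductase gene (-2.297, 44.1 fasted and 8.19 refed), the regulator gene Akna (-2.26), the glycogen-binding protein gene Stbd1 (-2.11) and Stard5, a lipid transfer protein gene (-2.08). Rasgef1b, an exchange factor gene, had a ratio of -2.04 (13.1 fasted and 2.43 refed). Each of these 6 genes was also lower after refeeding in WT islets, with ratios of -2.68, -2.68, -2.66, -2.22, -2.36 and -2.34 in that order.

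Transfer RNA synthetases join each amino acid to its transfer RNA, with largely separate sets of genes for the cytosol and the mitochondrion. Of 20 cytosolic synthetase genes, 13 were lower and 5 higher with bounds apart, beside 29.0% and 23.1% of all tested genes. Their median ratio was -0.50. Yars, for tyrosine, and Mars, for methionine, were lowest, at 75.9 fasted and 26.5 refed and 79.4 fasted and 27.7 refed, with ratios of -1.49 and -1.49. Cars, Iars and Vars, for cysteine, isoleucine and valine, had ratios of -1.24, -1.196 and -1.02. Dars, for aspartate, and Rars, for arginine, were higher after refeeding, at ratios of 0.44 (55.1 fasted and 75.2 refed) and 0.31 (44.8 fasted and 55.8 refed). The 17 mitochondrial genes had a median of 0.05, from -0.68 for Aars2 to 0.48 for Sars2. Of them 0 were at least 2-fold apart, beside 2.32% of all tested genes. With so low a share, 0 among 17 genes says little. The element TGATGNAA was found in 5 of 27 synthetase promoters (18.5%), those of Aars, Gars, Iars, Tars and Yars, whose ratios ran from -1.49 to -0.27.

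Translation factors lay on both sides of 0. Initiation factor genes had a median of 0.0050 over 20 members. Eif4a1, the RNA helicase of the cap-binding complex, stood at 99.01 fasted and 159.5 refed (ratio 0.68), while Eif4b, its cofactor, stood at 229.6 fasted and 138 refed (-0.73). The lowest of the 20 was Eif4ebp1 (-1.72), a gene of the ATF4 list. Among 9 elongation and poly(A)-binding genes the median was -0.55. Pabpc1, the main cytosolic poly(A)-binding protein, and Pabpc4 had ratios of -1.03 (214 fasted and 104 refed) and -1.07 (37.8 fasted and 17.5 refed). Eef2, the translocase of elongation, stood at 1929.8 fasted and 1312 refed (-0.56), whereas Eef1a1, which delivers charged transfer RNA, stood at 5231 fasted and 6301 refed (0.27). Eef1a1 has near-identical copies, so its value is uncertain.

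The unfolded protein response genes separated by role. Its sensors and factors had a median of -0.38 over 7 genes: Ern1, which encodes IRE1, stood at 87.1 fasted (bounds 85.3 to 89.00) and 42.9 refed (40.9 to 44.96), a ratio of -1.005, and Atf6 at 62.1 fasted and 32.98 refed, a ratio of -0.89. Eif2ak3, the gene of the kinase PERK, had a ratio of -0.35, while Xbp1, whose mRNA IRE1 splices, was at 267 fasted and 282 refed with a ratio of 0.08. Degradation genes had a median of -0.42 over 9 genes, led by Edem1, a mannosidase-like protein that extracts misfolded glycoproteins (50.5 fasted and 22.6 refed, -1.13), Herpud1 (-1.04) and Sel1l (-0.95). The 19 chaperones and oxidoreductases were mixed, with a median of -0.10, 7 higher and 11 lower with bounds apart. Hyou1, Dnajb9 and Ero1l were lowest, at -0.76, -0.74 and -0.87, and Fkbp11 was highest at 0.48 (38.8 fasted and 54.5 refed). Hspa5, which encodes the chaperone BiP, went from 1661 to 1450.5, a ratio of -0.20. Genes of the channel and enzymes that bring new proteins into the ER had a median above 0, of 0.22 over 14 genes. With bounds apart 10 were higher and 1 lower, beside 23.1% and 29.0% of all tested genes. Sec61g was highest (14.8 fasted and 26.1 refed, 0.78), while Sec63 was the lower one (50.2 fasted and 32.6 refed, -0.61).

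The ER stress element, read as CCAAT and CCACG with any 9 bases between them on either strand, was found in 9 of 43 promoters of this list (20.9%), against 0.119% of all promoters. The list was drawn up around genes of this response, so a high share is built into it. In the genes at least 2-fold lower the element was found in 0 of 189 promoters. Since it was found in 0.146% of promoters of the tested genes, that 0 says little. Within the list it stood in promoters of genes on either side of 0, of which a pair is shown.
Hspa5 chr2:34772020-34772049 (plus strand): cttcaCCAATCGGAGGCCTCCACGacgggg
Pdia6 chr12:17266486-17266515 (plus strand): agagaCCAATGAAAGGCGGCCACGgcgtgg
Hspa5 had a ratio of -0.20 and Pdia6, a disulfide isomerase gene, one of 0.23. The 9 genes had ratios between -0.42, for the ubiquitin ligase gene Syvn1, and 0.23.

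**Figure D3:**
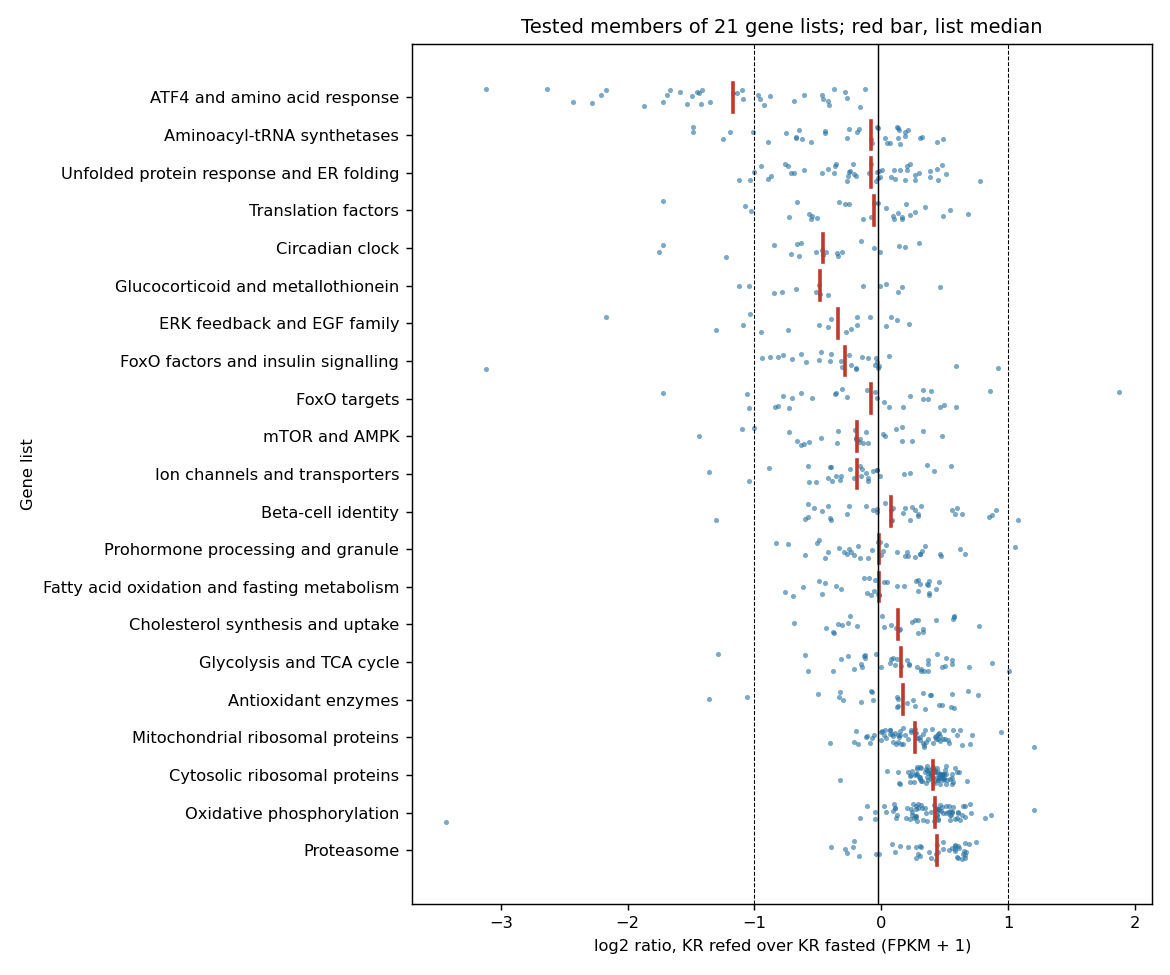
Log2 ratios of refed over fasted KR islets for the tested members of 21 gene lists, 1 point a gene, with the list median as a red bar, the median of all tested genes as a solid line and 2-fold as dashed lines. The ATF4 list has the lowest median, -1.17, and the proteasome list the highest, 0.44. The points of the unfolded protein response and synthetase lists lie on both sides of 0.

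Genes of the large protein machines were slightly higher after refeeding, by a small amount shared by most members. The proteasome, which degrades ubiquitin-tagged proteins, had a median of 0.44. Of its 45 members 34 were higher and 5 lower with bounds apart, beside 23.1% and 29.0% of all tested genes. Such counts depend on level, since bounds lay apart, in either direction, for 66.4% of tested genes from 20 to 100 FPKM. Psmd6, a subunit of its regulatory particle, stood at 80.3 fasted and 136 refed (ratio 0.75), and Psma2, of its core, at 123 fasted and 195 refed (0.66). Of 78 oxidative phosphorylation genes, the subunits of the respiratory chain and ATP synthase, 66 were higher and 2 lower with bounds apart, at a median of 0.42. Atp5k, an ATP synthase subunit, stood at 529 fasted and 964 refed (0.86). Ndufs5 was listed at 9.83 fasted and 9.6e-05 refed, where a value so near 0 for a complex I subunit can be a failed estimate. It is 1 of the 2 counted as lower, and the other is Ndufs7 at -0.17. Cytosolic ribosomal protein genes, whose many copies make each value uncertain, had 74 of 80 higher and 1 lower with bounds apart, at a median of 0.41. Their mitochondrial counterparts had 36 of 73 higher and 2 lower with bounds apart, at a median of 0.26. Mrpl33, at 68.03 fasted and 158 refed, was the highest of them. The WT medians of these lists were 0.51, 0.49, 0.41 and 0.31, in the same order.

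Many of these genes are short, and the ratio varied with transcript length. Over 10800 genes with a length, the median ratio was 0.23 in the shortest of 10 length bins (103 to 1357 bases) and -0.12 in the longest, and the rank correlation across genes was -0.23 in KR and -0.27 in WT. Centred on the median of genes of their length, the medians became 0.34 for the proteasome, 0.24 for oxidative phosphorylation, 0.24 for cytosolic and 0.13 for mitochondrial ribosomal proteins. The part that length has in these medians was not tested further. The ATF4 list, centred the same way, had a median of -1.07.

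**Figure D4:**
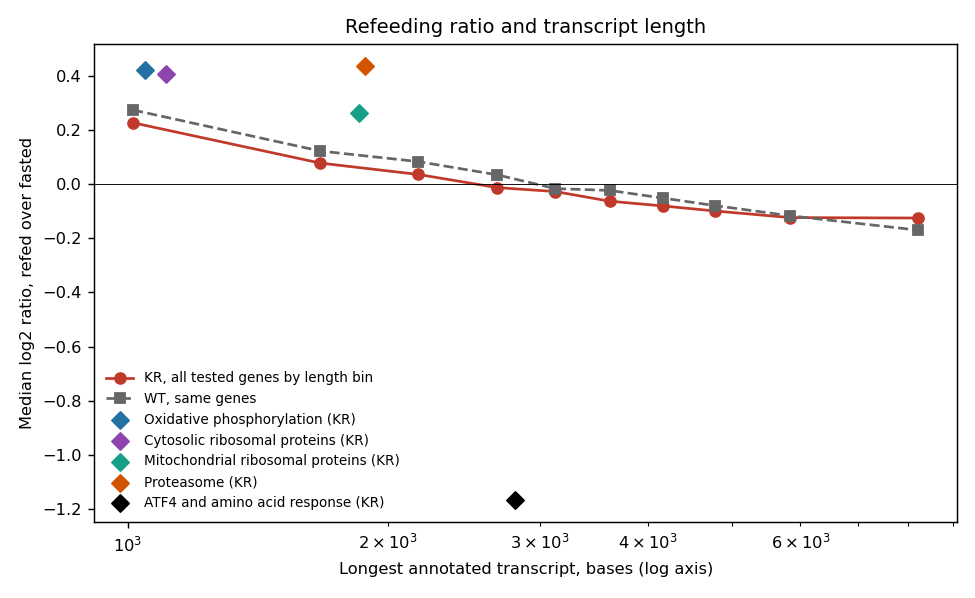
Median log2 ratio of refed over fasted islets in 10 bins of longest annotated transcript length (log axis), for KR (red circles) and WT (grey squares), with 5 list medians of KR as diamonds at their median length. The KR bins go from 0.23 to -0.12, the 4 protein machine lists lie above them and the ATF4 list lies far below.

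The biogenesis factors that build ribosomes had no common direction, unlike the ribosomal proteins. Over 36 nucleolar and polymerase I genes the median was -0.04, from -0.46 for Rrs1 to 0.47 for Nop56. With bounds apart 8 were higher and 10 lower, near the shares of all tested genes (23.1% and 29.0%). The 10 host genes of small nucleolar RNAs ranged from -0.59 for Snhg6 (94.6 fasted and 62.3 refed) to 0.71 for Snhg3 (52.5 fasted and 86.4 refed). Vesicle transport between ER and Golgi had a median of 0.11. With bounds apart 18 of its 32 members were higher and 7 lower, beside 23.1% and 29.0% of all tested genes. Its highest ratios were those of the retrieval receptor gene Kdelr3 (7.95 fasted and 16.1 refed, 0.94) and the coat gene Sec13 (111 fasted and 202 refed, 0.86). Among 25 heat shock and chaperonin genes of the cytosol and mitochondrion the median was 0.06. Dnajb4 was highest (0.83), and Hspa9, the mitochondrial HSP70, went from 448 to 273 (-0.71). Hsf1, the heat shock factor gene, had a ratio of -0.84.

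Of the glucose-responsive genes, Txnip had the highest ratio of the ranked genes after Egr1. It encodes an arrestin-like inhibitor of thioredoxin and glucose uptake and lies at chr3:96361880-96365780 in mm9. Its FPKM was 23.95 fasted (bounds 22.8 to 25.1) and 90.5 refed (86.9 to 94.04), a ratio of 1.87. Arrdc4, its close relative and a further ChREBP target, stood at 5.79 fasted and 6.39 refed with overlapping bounds. Mlxipl, which encodes ChREBP, was near level at 92.4 fasted and 83.9 refed (-0.14). G6pc2, the islet glucose-6-phosphatase, stood at 366 fasted (bounds 361 to 372) and 776 refed (763 to 789), the single member of the beta-cell identity list at least 2-fold higher (1.08). Slc2a2, the gene of GLUT2, stood at 85.4 fasted and 158 refed (0.88). G6pdx, the entry enzyme of the pentose phosphate pathway, had a ratio of 0.70 (32.2 fasted and 52.8 refed), and Pfkfb2, which makes the activator of phosphofructokinase, one of 0.45. Over the 16 tested genes of this programme the median was 0.13. At least 2-fold higher were 2 and lower 0, beside 0.569% and 1.75% of all tested genes.

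Glycolysis and the TCA cycle had medians of 0.10 over 18 genes and 0.20 over 21. Eno2, a neuroendocrine enolase, was lowest (59.1 fasted and 23.6 refed, -1.29), and Slc2a1, the gene of GLUT1, had a ratio of -0.58. Among the TCA cycle genes Idh1, the cytosolic NADPH-producing isocitrate dehydrogenase, was highest (25.1 fasted and 51.3 refed, 1.005), followed by Fh1, fumarase, at 0.69 (91.6 fasted and 148 refed).

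Fatty acid oxidation, which the series title names, had a median of -0.02 over 32 tested genes. It had no member at least 2-fold apart, beside 2.32% of all tested genes. With so low a share, the lack of such members among 32 genes says little. Of 9 genes that activate fatty acids or bring them into mitochondria, 4 were lower and 1 higher with bounds apart. Cpt1a, the rate-limiting carnitine transferase, stood at 28.1 fasted (bounds 27.1 to 29.1) and 16.2 refed (14.99 to 17.4) (ratio -0.76). Acsl4, which activates long-chain fatty acids, stood at 20.9 fasted and 12.5 refed (-0.69). The enzymes of the oxidation cycle had a median of 0.15 over 18 genes, 9 higher and 2 lower with bounds apart. Etfdh, which passes electrons to the respiratory chain, was highest at 0.45 (27.2 fasted and 37.6 refed), and Acaa1a, a peroxisomal thiolase, lowest at -0.36. Of the regulators, Ppard, a nuclear receptor, had a ratio of -0.62 (14.8 fasted and 9.31 refed) and Pdk4, the kinase that holds back pyruvate oxidation, one of -0.11 (10.9 fasted and 9.96 refed) with overlapping bounds. Ppara, Ppargc1a and Fgf21 did not reach a mean FPKM of 1.

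Lipid synthesis was mixed. Among fatty acid synthesis genes the median was -0.14 over 18, and Pparg, the adipogenic nuclear receptor, was the single one at least 2-fold lower (28.96 fasted and 11.9 refed, -1.22). Scd2, a desaturase, was highest (13.9 fasted and 21.6 refed, 0.61), while Fasn and Acaca, the core enzymes, had ratios of -0.10 and -0.28. The 19 cholesterol synthesis enzymes had a median of 0.25, with Ebp at 0.77 (14.4 fasted and 25.3 refed) and Nsdhl at 0.57. Of their 4 regulators 3 were lower with bounds apart, among them Scap, the sterol sensor, at -0.69 (35.8 fasted and 21.9 refed) and Srebf2 at -0.44 (20.8 fasted and 15.1 refed).

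Foxo1, the gene that carries the KR allele, lay at 14.1 fasted and 13.8 refed in KR islets, and the bounds overlapped. Of the other FoxO genes, Foxo6 stood at 15.1 fasted and 9.67 refed (-0.60), Foxo4 at 8.698 fasted and 6.82 refed (-0.31) and Foxo3 at 8.29 fasted and 8.02 refed (-0.04). Sirt1, a deacetylase of FoxO1, had a ratio of -0.10, and the acetyltransferase genes Ep300 and Crebbp ratios of -0.20 and -0.26.

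Genes from the insulin receptor to AKT were mostly lower after refeeding, at a median of -0.40. With bounds apart 13 of 19 were lower and 2 higher, beside 29.0% and 23.1% of all tested genes. The lowest of them was Trib3 (-3.12), which the ATF4 list counts as well. Insr, the insulin receptor, stood at 11.8 fasted (bounds 11.3 to 12.2) and 7.24 refed (6.703 to 7.78) (-0.63), Igf1r at 18.2 fasted and 10.2 refed (-0.78) and Irs2, their main adaptor in beta cells, at 7.59 fasted and 4.28 refed (-0.70). Insr, Igf1r and Irs2 are known FoxO targets. Akt2 stood at 57.7 fasted and 30.9 refed (-0.88) and Grb10, which restrains the receptor, at 24.2 fasted and 12.1 refed (-0.94). Pik3r3, a regulatory subunit of PI3 kinase, was highest, at 11.2 fasted and 22.02 refed (0.92), and Trib1, a pseudokinase gene related to Trib3, was the other higher one (0.59). These are long transcripts, with a median of 5257 bases, and the median centred by length was -0.32.

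The 30 tested FoxO target genes had no common direction, at a median of -0.08. With bounds apart 10 were higher and 14 lower, beside 23.1% and 29.0% of all tested genes. The lowest was Eif4ebp1 (-1.72), which the ATF4 list counts as well. Besides Txnip the highest were Pik3ip1, an inhibitor of PI3 kinase (3.91 fasted and 7.87 refed, 0.85), and Sesn1 (15.6 fasted and 24.1 refed, 0.59). Cat, catalase, stood at 12.7 fasted and 5.59 refed (-1.06), Klf15 at 10.9 fasted and 4.74 refed (-1.05), Bbc3, which encodes the cell death protein PUMA, at 7.47 fasted and 3.73 refed (-0.84) and Gadd45a, a DNA damage gene, at 50.5 fasted and 28.3 refed (-0.81). The forkhead element TGTTTAC, on either strand, was found in 5 of 36 promoters of this list (13.9%), against 3.65% of all promoters. The 5 were those of Bbc3, Bcl2l11, Sesn1, Trim63 and Txnip, of which Trim63 was not among the tested genes. The list was drawn up from FoxO targets, so this share is not independent of that choice.

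Of the nutrient sensors of mTORC1 and AMPK, 15 of 28 were lower with bounds apart and 3 higher, beside 29.0% and 23.1% of all tested genes. The lowest was Sesn2 (-1.44), a gene of the ATF4 list. Rragd and Rragc, GTPases that recruit mTORC1 to the lysosome, stood at 64.5 fasted and 31.8 refed (-0.9999) and 105 fasted and 63.1 refed (-0.73), and their regulators Fnip2 and Flcn at ratios of -1.102 and -0.61. Mtor had a ratio of -0.47, and Prkaa1, a catalytic subunit of AMPK, was the highest at 0.48 (36.3 fasted and 50.9 refed). Mcoln1, a lysosomal calcium channel, was the single lysosome gene at least 2-fold lower (38.9 fasted and 17.5 refed, -1.11). Sqstm1, the autophagy receptor p62, stood at 755 fasted and 495 refed (-0.61) and Tfeb, the master factor of lysosome genes, at 3.69 fasted and 2.16 refed (-0.57). The other genes of that list lay on both sides of 0, at medians of -0.08 for autophagy and of -0.00065 for lysosome genes.

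The insulin genes differed between themselves in what could be measured. Ins1, in mm9 at chr19:52338813-52339948, had an FPKM of 7966 fasted (bounds 7928 to 8005) and 12196 refed (12122 to 12271), a ratio of 0.61. In WT islets Ins1 went from 4319.8 (4291 to 4348) to 3498 (3467 to 3529), a ratio of -0.30, so KR was higher after refeeding and WT lower, and this difference was not tested. Ins2 has no value in the fasted KR library and stood at 201043 in the refed one, beside 122864 and 121397 in fasted and refed WT islets. Ins1 and Ins2 are near-identical copies, so reads could be split between them, and the missing Ins2 value leaves no check of this in the fasted KR library. Iapp, the gene of amylin that beta cells secrete with insulin, stood at 46126 fasted (bounds 46006 to 46246) and 66975 refed (66749.9 to 67199.6) (0.54). Ppy and Pyy, peptides of PP cells, had ratios of 0.66 (8517 fasted and 13455 refed) and 0.49 (5339 fasted and 7486 refed), while Gcg, glucagon, stood at 26030.5 fasted and 24882 refed (-0.07) and Sst, somatostatin, at 3151 fasted and 3131 refed (-0.0094). In WT islets Gcg had a ratio of 0.30.

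Transcription factors of the beta cell had a median of -0.0038 over 20 genes, 7 higher and 7 lower with bounds apart. Isl1, Pax6 and Rfx6, factors shared by endocrine cells, had ratios of 0.90 (54.5 fasted and 103 refed), 0.56 (160.3 fasted and 236 refed) and 0.58 (72.1 fasted and 108 refed). Pdx1, the factor that drives insulin transcription, stood at 63.7 fasted and 75.4 refed (0.24). Insm1, a zinc finger repressor of transcription that acts in endocrine development, was the single one at least 2-fold lower (169 fasted and 67.6 refed, -1.31). Mafa, a factor of mature beta cells, stood at 53.5 fasted (bounds 50.4 to 56.5) and 36.8 refed (32.9 to 40.7) (-0.53), and in WT islets at 27.7 (25.5 to 29.9) and 32.8 (29.9 to 35.7) (0.24). The KR value was thus lower after refeeding, while the WT bounds just overlapped, and the difference between genotypes was not tested.

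Secretory granule genes lay on both sides of 0. Sytl4, the granule docking protein granuphilin, was the single one at least 2-fold higher (53.9 fasted and 113 refed, 1.06). Pcsk1, the convertase that starts insulin processing, stood at 102 fasted and 161 refed (0.66) and Pcsk2 at 1441 fasted and 1658 refed (0.20), whereas Pcsk1n, which encodes an inhibitor of PCSK1, stood at 449 fasted and 252 refed (-0.83). Of 16 exocytosis genes 3 were higher and 7 lower with bounds apart, beside 23.1% and 29.0% of all tested genes. Vamp8, a vesicle fusion protein gene, was highest at 0.47.

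Of 30 ion channel and transporter genes 16 were lower and 5 higher with bounds apart, beside 29.0% and 23.1% of all tested genes, at a median of -0.19 that became -0.10 when centred by length. Atp2a2, the ER calcium pump SERCA2, was lowest (637 fasted (bounds 632 to 641) and 247 refed (243 to 251), -1.36). Kcnh2, a potassium channel, stood at 57.3 fasted and 27.2 refed (-1.05) and Cacnb3, a calcium channel subunit, at 52.9 fasted and 28.2 refed (-0.89). Abcc8 and Kcnj11, the subunits of the ATP-sensitive channel, had ratios of -0.58 and -0.42. The calcium, sodium and chloride genes are long, with a median of 7681 bases, and their median of -0.21 became -0.08 when centred by length. Of the receptors, Vipr2, for the peptides VIP and PACAP, was lowest (5.24 fasted and 1.297 refed, -1.44), and Galr1, for the inhibitory peptide galanin, highest (8.21 fasted and 16.1 refed, 0.89). Gpr119, a lipid receptor that raises cAMP, stood at 13.4 fasted and 21.4 refed (0.64), and Adra2a, which mediates the brake of adrenaline on insulin release, at 25.5 fasted and 13.3 refed (-0.89).

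Immediate early genes, which respond within minutes to signals, did not move as one. Egr1 had the highest ratio of the ranked genes, 2.35, from 1.31 fasted (bounds 1.05 to 1.57) and 10.8 refed (9.63 to 11.98). Fos stood at 0.502 fasted (bounds 0.301 to 0.703) and 2.82 refed (2.08 to 3.56) (1.35), while Jun (-0.21) and Jund (-0.55) were below 0. In WT islets Egr1 went from 1.296 to 4.34 (1.22) and Fos from 0.751 to 1.1 (0.26). Myc, which encodes a growth-promoting transcription factor, was among the 15 lowest (18.6 fasted and 4.35 refed, -1.88). Feedback inhibitors of ERK signalling were mostly lower, at a median of -0.46. With bounds apart 8 of 12 were lower and 0 higher, beside 29.0% and 23.1% of all tested genes. They include the phosphatase gene Dusp4 (7.39 fasted and 2.39 refed, -1.31) and Spry2 (6.31 fasted and 2.44 refed, -1.09). Areg, the EGF receptor ligand amphiregulin, stood at 7.27 fasted and 0.833 refed (-2.17).

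Clock genes were mostly lower, at a median of -0.46. With bounds apart 15 of 21 were lower and 3 higher, beside 29.0% and 23.1% of all tested genes. The labels used here give no time of day for the islet collection. Nfil3, a repressor that opposes the activator DBP, stood at 22.1 fasted and 5.85 refed (-1.75), and Cry1, a core repressor, at 14.8 fasted and 5.74 refed (-1.23). Per1 and Per2 had ratios of -0.52 and -0.67, whereas Dbp stood at 38.2 fasted and 36.7 refed (-0.05) and Per3 at 5.25 fasted and 6.71 refed (0.30). Genes that glucocorticoids induce, hormones that rise in fasting, had a median of -0.49 over 15, with 9 lower and 1 higher with bounds apart. The metallothionein genes Mt2 and Mt1 stood at 2829 fasted and 1298 refed (-1.12) and 4202 fasted and 2438 refed (-0.79). Fkbp5, a cochaperone of the glucocorticoid receptor, stood at 45.1 fasted and 27.9 refed (-0.68) and Tat, tyrosine transaminase, at 71.8 fasted and 39.6 refed (-0.84). The receptor gene Nr3c1 was near level (-0.01), and Cdkn1a, a cell cycle inhibitor, was the higher one (0.46).

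Among growth and cell cycle genes Ccnd2, the main D cyclin of beta cells, stood at 129 fasted and 81.7 refed (-0.66), Ccnd1 at 34.7 fasted and 38.95 refed (0.16) and Pcna, the replication clamp, at 44.1 fasted and 58.9 refed (0.41). Mki67, Top2a and Cdk1, which mark dividing cells, did not reach a mean FPKM of 1. Amd1 was listed at 0.00082 fasted and 8.13 refed, where the fasted value so near 0 can be a failed estimate, and no ratio is read from it. Of 28 antioxidant genes 16 were higher and 7 lower with bounds apart, beside 23.1% and 29.0% of all tested genes. Their median was 0.17. Nqo1, a quinone reductase, and Txn1, thioredoxin, had ratios of 0.76 (7.21 fasted and 12.95 refed) and 0.69 (66.7 fasted and 108 refed). Hmox1, heme oxygenase, stood at 104 fasted and 40.1 refed (-1.36), the lowest of the list. In the monoamine list, 5 of 7 were higher and 1 lower with bounds apart, with Th, tyrosine hydroxylase, at 36.6 fasted and 60.1 refed (0.70). Usp18, an interferon-induced protease, was the highest of 20 interferon response genes (10.2 fasted and 21.4 refed, 1.01), whose median was 0.19. Of 12 tested genes that beta cells normally keep silent, 3 were at least 2-fold lower, beside 1.75% of all tested genes. They were Lmo4 (13.1 fasted and 3.85 refed, -1.54), Igfbp4 (2.67 fasted and 0.444 refed, -1.35) and Cat, already named among the FoxO targets. The refed Igfbp4 value was low, with bounds of 0.148 to 0.739.

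The other genes among the 15 highest have few links to these lists. Srsf3, a splicing factor, stood at 27.9 fasted (bounds 26.6 to 29.2) and 94.95 refed (91.2 to 98.7), a ratio of 1.73. Upp2, a uridine phosphorylase, stood at 2.94 fasted and 9.75 refed (1.45). S100a10, a calcium-binding protein gene, and Defb1, a defensin gene, had ratios of 1.58 (43.9 fasted and 133 refed) and 1.54 (65.9 fasted and 194 refed). Tppp3, a tubulin-binding protein gene, stood at 8.09 fasted and 30.4 refed (1.79) and Tnfrsf23, a decoy receptor gene, at 3.88 fasted and 12.6 refed (1.48). Others were Kctd12b (1.65), Slitrk6 (1.28), Fam101a (1.27), Dapl1 (1.23) and the pseudogene Pisd-ps1 (4.11 fasted and 14.6 refed, 1.61). Pisd-ps1 was listed near 0 in both WT libraries, at 0.00194 and 0.001701, and shares sequence with other copies, so its value is uncertain.

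The labelled tissue was checked against its markers. Of 13 islet hormone and peptide genes 10 had a value in both libraries and a mean FPKM of at least 1, with Ins2 lacking the fasted value. Of 19 acinar markers 5 reached a mean FPKM of 1, with Cela1, an elastase gene, at 39.7 fasted and 57.4 refed. No red blood cell marker of 6 reached it. The beta cell markers had a median ratio of 0.24 over 9 genes and the alpha cell markers one of -0.32 over 8, with summed FPKM of 26949.7 and 25834 for alpha cells, nearly all from Gcg. With at least 5 FPKM required, the alpha median was -0.07. Endothelial markers were at low levels, with summed FPKM of 35.3 and 28.7, a median ratio of -0.41 over 8 genes and 4 of 8 lower with bounds apart, among them Plvap (3.35 fasted and 1.42 refed, -0.85). That median turned to 0.10 when a mean FPKM of at least 5 was required. Of 11 stellate cell and fibroblast markers 6 were lower and 2 higher with bounds apart, beside 29.0% and 23.1% of all tested genes. Col1a1 stood at 4.58 fasted and 1.69 refed (-1.05) and Acta2 at 5.49 fasted and 10.8 refed (0.86). Of 15 macrophage and antigen-presenting cell markers 7 were lower and 0 higher with bounds apart. The class II gene H2-Ab1 stood at 11.8 fasted and 4.37 refed (-1.25) and Cd74 at 54.2 fasted and 27.1 refed (-0.97), whereas C1qa stood at 67.4 fasted and 65.7 refed (-0.04). The duct markers had a median of 0.17 over 6 genes, Krt8 highest at 70.3 fasted and 113 refed (0.68). Of 8 adipocyte markers Adipoq, Plin1, Lep, Retn and Cfd were listed at 0 in both libraries. The other 3 reached a mean FPKM of 1, at a median ratio of -0.48. They were Lpl, at 132 fasted and 140 refed, Fabp4, at 1.58 fasted and 0.85 refed, and Pparg, with a ratio of -1.22. The part of these cells in the ratios above was not tested.

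Set beside WT islets, the refeeding ratios of KR islets were close for most genes. Over 11937 genes with both ratios, Pearson r was 0.81 and Spearman rho 0.87, across genes, which are not independent replicates. At least 2-fold higher after refeeding in WT were 125 genes (1.05%) and 282 lower (2.36%), so WT had more at either side. The refed WT library was also the deeper one, at about 18103888 implied fragments. Of the 68 higher KR genes 44 were also at least 2-fold higher in WT, 64.7% of the KR and 35.2% of the WT genes. Of the 208 lower KR genes with a WT value 169 were shared, 81.2% of the KR and 59.9% of the WT genes. Of the genes called in KR, 62 of 68 higher and 197 of 208 lower ones had the same sign in WT, and 29 and 137 had the larger ratio there. Whether the genotypes differ in their response was not tested, since neither has a second library.

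**Figure D5:**
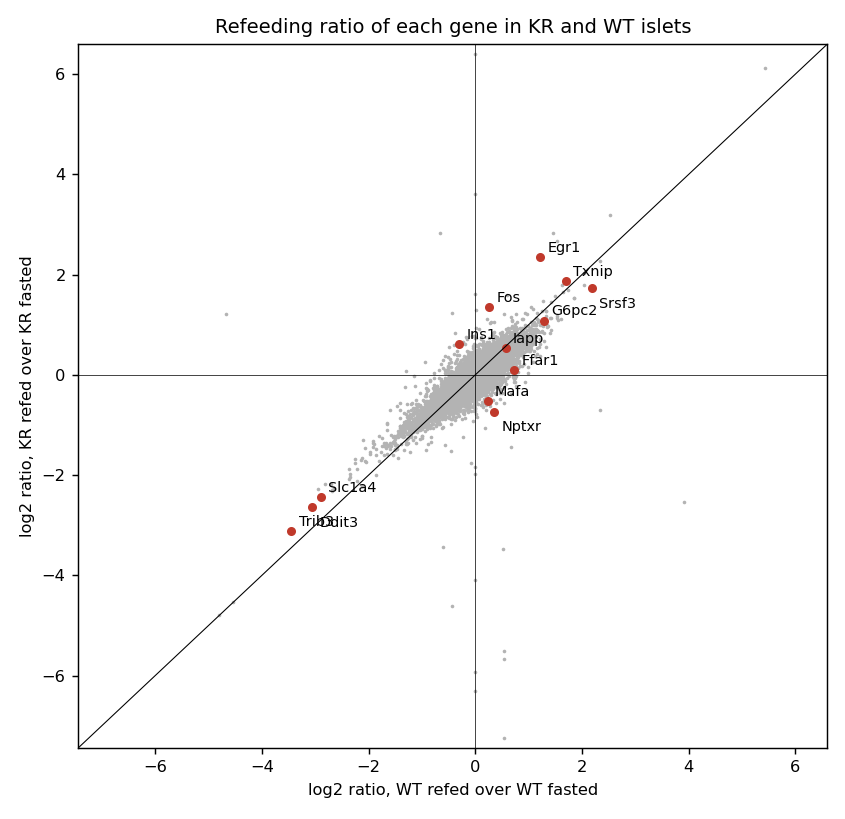
Log2 ratio of refed over fasted islets in WT (horizontal) and KR (vertical) for 11937 genes, with the line of equal ratios and named genes in red. Most points lie along the line, with Trib3 at -3.45 and -3.12, while Ins1 lies at -0.30 and 0.61 and Nptxr at 0.35 and -0.73. Points along the axes far from 0 include genes listed near 0 in 1 library.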

How the data were processed

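The RNA of pooled islets, 1 library a group, was poly-A selected and prepared with an Illumina TruSeq kit, per the labels' protocols. The submitters' processing notes name bcl2fastq 1.8.4, TopHat2 2.0.4 and mouse build mm9. The deposited tables hold an FPKM for each gene, its 2 bounds and a status, per the file headers. Which program and annotation made them is not given in the sources used.

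Each table has 23699 entries, and entries of 1 symbol were summed, with their bounds. Where the status was not OK the value was left out, which left 176 symbols without a KR ratio, Ins2 among them. Ratios used a pseudocount of 1 FPKM and a mean FPKM of at least 1, computed in Python 3.11.15 with pandas 2.3.3 and numpy 2.4.6 and tested on simulated data. Implied fragments are the square of FPKM over its standard error, the latter from the upper bound. This assumes a confidence level, which the sources do not give, and counting error alone, so implied fragments are approximate. Gene positions are mm9 as deposited, counted from 1, and may be off by 1 base; promoter positions are GRCm38.p6. Lengths are of the longest GENCODE M21 transcript, matched by symbol for 90.4% of tested genes. With 1 library a group, no p-value, error between animals or leave-one-out value is given. Bounds come from a single library each and hold no error between animals.

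The members and the 47 gene lists were chosen with earlier results of these data known. Genes named are the 15 highest and 15 lowest ratios with a mean FPKM of at least 5, list members at least 2-fold apart, the 4 largest ratios and first 3 genes of each list role, a fixed panel, and genes with opposite ratios in KR and WT. Named after their values were seen were Acaa1a, C1qa, Cdk1, Cfd, Ddit4, Ep300, Fgf21, Flcn, Gadd45a, Gars, Jun, Lep, Mthfd1l, Ndufs7, Nr3c1, Nupr1, Pax6, Pdia6, Phgdh, Prkaa1, Rars, Retn, Rfx6, Sesn1, Sirt1, Slc38a2, Syvn1, Tars, Trib1 and Xbp1. Alternatives in pseudocount, filter, scaling, entries per symbol, bounds, depth and transcript length were computed. Some genes chosen this way are not reported here.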

Additional observations from a re-analysis of the deposited data

Results flagged for a closer look

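Of the genes named, a pair had ratios of opposite direction in KR and WT islets, each at least 0.3 in size and with bounds apart between refed and fasted. Ins1, which encodes insulin I, had a log2 ratio of refed over fasted of 0.61 in KR and -0.30 in WT. Its FPKM was 7966 fasted and 12196 refed in KR and 4320 fasted and 3498 refed in WT, so the refed KR value was the highest of the 4 and the refed WT value the lowest. As a percentage of Ins2, Ins1 stood at 6.07 in refed KR, 3.52 in fasted WT and 2.88 in refed WT, and it cannot be given for fasted KR, where Ins2 has no value. Nptxr, a receptor gene for neuronal pentraxins, had ratios of -0.73 in KR, with an FPKM of 7.01 fasted and 3.82 refed, and of 0.35 in WT, with 2.91 fasted and 4.0 refed. The refed values of both genotypes lay close together, and the fasted KR value stood apart from the other 3. With 1 pooled library a group, the difference between genotypes was not tested for either gene.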

How the results depend on the processing

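The counts of genes at least 2-fold higher and lower after refeeding, 68 and 209, moved most with the pseudocount, to 136 and 340 with 0.1 FPKM and to 36 and 100 with 5 FPKM, since the pseudocount sets how far low genes can move. Over the other 8 alternatives they ran from 46 to 76 and from 167 to 218. Of 86 named genes at least 2-fold apart, 58 stayed so with a pseudocount of 5 FPKM, 84 after rescaling by the median of ratios and 76 of 84 when centred by transcript length, and 0 changed sign in any of the alternatives. Of 71 list medians, 56 kept their sign in every alternative, and of the 35 at 0.2 or more in size 34 did, the endothelial markers being the exception, at 0.10 with a mean FPKM of at least 5. The alternatives of at least 50 implied fragments in both libraries and of centring by length were chosen after seeing the data. Depth limits the low genes most: the median half-width of the ratio was 0.40 at a mean FPKM of 1 to 5. No paired analysis was possible because each group holds 1 library.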
